A study of Arabidopsis thaliana with 18 samples.

Results

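AT5G57760 is a protein-coding gene on chromosome 5 of Arabidopsis thaliana that carries only its locus name in the RefSeq table of assembly TAIR10.1. It was measured by 1 of the 22810 probe sets of the Affymetrix ATH1 array, 247878_at, which the platform table gives to this gene alone. It was chosen by these measured intensities, for the strongest fall in etr1-1 against Col-0 among named probe sets, and it is 1 of 13286 genes that a probe set names alone. The difference between the genotypes is therefore described below with no test, and tests are given only for contrasts that the choice did not use.

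Ethylene is a gaseous hormone sensed by receptors of which ETR1 is one, and the receptors repress the response until they bind ethylene. The dominant allele etr1-1 makes a receptor that does not bind ethylene, so the plant stays insensitive to it. Gibberellins such as GA4 act in another way, through receptors of the GID1 family that lead to the breakdown of DELLA repressor proteins, and they promote growth of the shoot. The series asks, by its title, how the 2 hormones meet in the control of transcription.

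Whole plants aged 14 days were sprayed with water or with GA4 dissolved in water, and RNA from each sample was hybridised to 1 of 18 arrays. The wild type was Col-0 and the mutant was the line etr1-1, labelled as in the Col ecotype, so that every difference between genotypes comes from 1 mutant line with 1 allele. In each genotype 1 array was made from plants harvested immediately after a water spray (0 h), 1 at 30 min after GA4 and 1 at 3 h after GA4, and 3 arrays were made at 1 h after water and 3 at 1 h after GA4. There was no water spray at 30 min or 3 h among these samples. Nothing in the labels states that replicates were grown apart, so p-values cover only the spread seen among these arrays, which may be technical.

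Titles of 10 arrays begin with DV001 (1 array of each of the 10 groups, numbered replicate 3 at 1 h and 1 elsewhere), and titles of the other 8 begin with DV002 (replicates 1 and 2 at 1 h). The deposited intensities are linear and share a trimmed mean of 100.007 to 100.008 on every array, and they carry no detection call. The number of arrays limits the precision. Replicates of a group at 1 h correlated at 0.957 to 0.979 over the tested probe sets. The label of whole plant could be checked on few markers: of 10 root genes 1 had a named probe set, the root hair expansin gene EXPA7 (34.5 to 75.2 units over the 18 arrays), and of 10 shoot genes 2 had one, the antenna protein gene LHCB4.1 (2603.3 to 3671.1 units) and the Rubisco activase gene RCA (2147.7 to 3330.5 units). The remaining markers, 9 of root and 8 of shoot, were not analysed here.

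AT5G57760 gave a clear signal on every Col-0 array and a dim one on every etr1-1 array. In Col-0 it was at 132.2 units at 0 h, 156.0 at 30 min after GA4 and 129.5 at 3 h after GA4, on 1 array each. At 1 h after water the 3 Col-0 arrays read 172.2, 153.0 and 207.7 units in replicates 1, 2 and 3, a mean of 178 ± 27.8 (SD, n = 3). At 1 h after GA4 they read 147.4, 77.7 and 239.3 units, a mean of 155 ± 81.1 (SD, n = 3). The highest and the lowest of the 9 Col-0 arrays thus both belonged to the group sprayed with GA4 and harvested at 1 h.

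In etr1-1 the gene was at 14.6 units at 0 h, 12.4 at 30 min after GA4 and 15.4 at 3 h after GA4. At 1 h after water the etr1-1 arrays read 16.2, 13.5 and 15.8 units, a mean of 15.2 ± 1.46 (SD, n = 3). At 1 h after GA4 they read 13.4, 19.7 and 16.1 units, a mean of 16.4 ± 3.16 (SD, n = 3). No etr1-1 array came near the Col-0 arrays: the highest etr1-1 value was 19.7 units and the lowest Col-0 value 77.7. In RNA of whole plants, fewer cells that hold a transcript and less transcript per cell cannot be told apart.

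**Figure D1:**
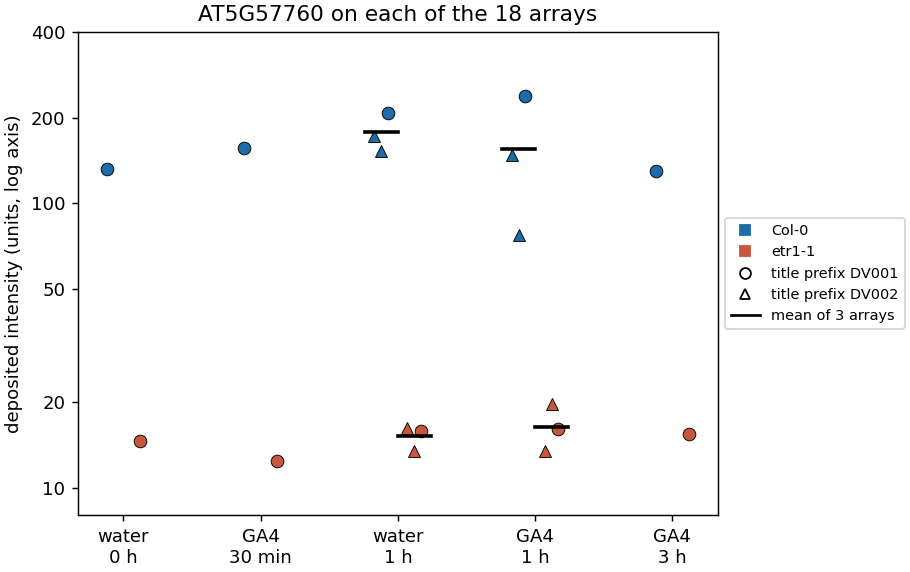
Deposited intensity of AT5G57760 (log axis) on each of the 18 arrays by spray and time, with genotypes in colour, title prefixes by symbol and a line at the mean of 3 arrays. The Col-0 arrays lie between 77.7 and 239.3 units and the etr1-1 arrays between 12.4 and 19.7.

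By intensity the 5 conditions ran in Col-0 from water at 1 h (mean 178 units) through GA4 at 30 min (156.0), GA4 at 1 h (155) and water at 0 h (132.2) down to 129.5 at 3 h after GA4. The 3 conditions with 1 array each lay within the range of the GA4 arrays at 1 h (77.7 to 239.3), so no neighbours in this order were separated by more than the spread of replicates. In etr1-1 the order was GA4 at 1 h (16.4), GA4 at 3 h (15.4), water at 1 h (15.2), water at 0 h (14.6) and GA4 at 30 min (12.4). Of these, GA4 at 30 min lay below all 6 etr1-1 arrays at 1 h (13.4 to 19.7), by 1 unit from the lowest, and it was a single array.

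The ratio of the deposited intensities, Col-0 over etr1-1, was 9.05 at 0 h, 12.6 at 30 min after GA4, 11.7 at 1 h after water, 9.44 at 1 h after GA4 and 8.41 at 3 h after GA4 (ratio of means where there were 3 arrays). Over the 9 pairs of arrays with the same condition and replicate number it ran from 3.94 to 14.9. The lowest was replicate 2 at 1 h after GA4, where the Col-0 array was the dimmest of its genotype and the etr1-1 array the brightest of its own. The other 8 pairs had ratios of 8.41 or more. All 5 conditions thus showed the same direction, which the choice of the gene by its fall made likely.

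The size of the fold depends on how the dim etr1-1 signal is treated. On the scale log2(intensity + 16), averaged over the 5 conditions, etr1-1 minus Col-0 was -2.40, a fold of 5.28. With no offset the fold was 9.93, with an offset of 1 it was 9.36 and with an offset of 64 it was 2.68. On the scale with an offset of 16 the difference was -2.28 at 0 h, -2.60 at 30 min, -2.63 at 1 h after water, -2.29 at 1 h after GA4 and -2.21 at 3 h.

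Among named probe sets this was the largest fall, and by size it came second to the rise of AT3G28220, a gene of the TRAF-like class (2.47, from a mean of 129 units in Col-0 to 495 in etr1-1). It was followed by QQS, an orphan gene of starch metabolism (2.30, from 25.7 to 201 units), AT3G16670 (-1.86, from 304 to 75.0 units) and ARL, whose product is related to ARGOS and acts in cell expansion (-1.85, from 260 to 54.2 units). AT3G28220 ranged from 10.3 to 366.5 units in Col-0 and from 228.0 to 700.0 in etr1-1, so its genotypes overlapped. The genotypes of QQS (14.4 to 38.7 and 133.4 to 325.9 units), AT3G16670 (108.1 to 457.3 and 49.1 to 102.8) and ARL (162.3 to 416.7 and 41.4 to 65.5) did not overlap, and neither did those of AT5G57760, whose lowest Col-0 array was 3.94-fold above its highest etr1-1 array. Of 22746 probe sets other than controls, 78 (0.343%) had every Col-0 array above every etr1-1 array, and 67 (0.295%) had the reverse, as QQS did. AT5G57760 had the widest gap of the 78 as a ratio, on the same values by which it was chosen. One probe set to which the platform table does not give exactly 1 gene had a larger fall on the offset scale.

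On Col-0 arrays AT5G57760 exceeded between 63.5% and 87.8% of all probe sets of the same array. On etr1-1 arrays it exceeded between 21.7% and 28.1%. Its mean over all 18 arrays passed the filter on low values, which removed the lowest 30% of probe sets by mean log2 value, because of the Col-0 arrays: by its etr1-1 arrays alone it exceeded 24.2% of the probe sets and would have been removed. Probe sets differ in how strongly they hybridise, so these shares place the brightness of the probe set and not the amount of transcript.

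**Figure D2:**
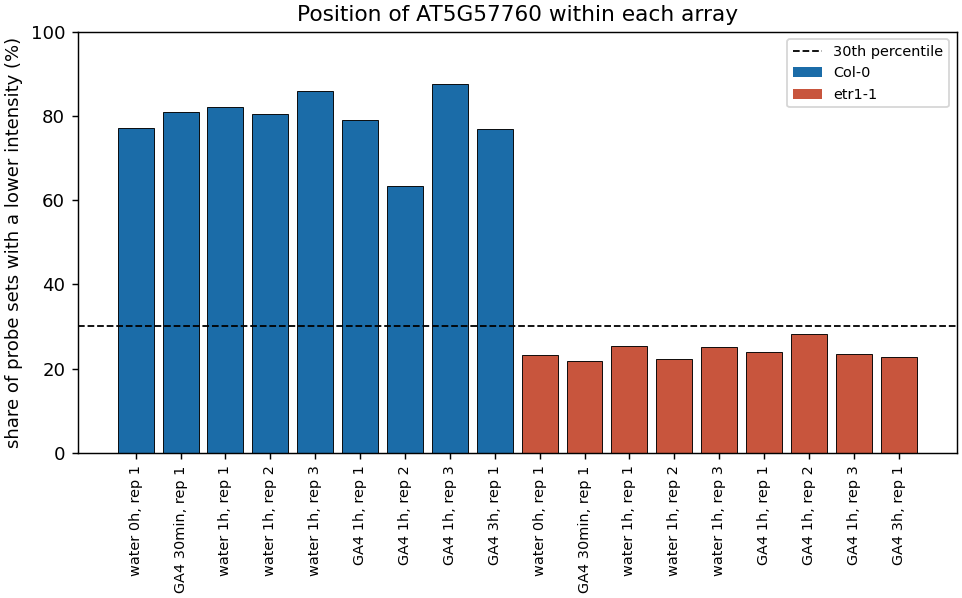
Share of probe sets (%) with a lower intensity than AT5G57760 on each array, by genotype, with the filter's 30th percentile as a dashed line. The Col-0 bars reach 63.5 to 87.8% and the etr1-1 bars 21.7 to 28.1%.

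How dim the etr1-1 signal was can be set against 27 control probe sets for genes of Bacillus subtilis, a bacterium whose transcripts reach the array only if they are added as spikes or hybridise across. The 5 etr1-1 arrays with DV001 titles had control medians between 1.4 and 2.8 units, and AT5G57760 lay above at least 26 of the 27 controls on each of them. The 4 etr1-1 arrays with DV002 titles had control medians between 16.0 and 29.5 units, and there AT5G57760 lay above 14, 4, 7 and 15 of the 27. The same split held in Col-0, where control medians were between 1.0 and 2.2 units with DV001 and between 7.1 and 38.0 with DV002. On all 9 Col-0 arrays AT5G57760 lay above at least 23 of the 27. The level of AT5G57760 in etr1-1 did not follow the controls: it was 12.4 to 16.1 units with DV001 and 13.4 to 19.7 with DV002. The highest control on the etr1-1 arrays read 9.7 to 28.3 units with DV001 and 86.1 to 170.6 with DV002. The counts with DV002 were thus taken against brighter controls, and the reason for their brightness was not tested. Neither the counts with DV001 nor those with DV002 measure how dim the gene was.

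GA4 against water at 1 h is a contrast that the choice of the gene did not use. In Col-0 the GA4 array was below the water array of the same number in replicate 1 (147.4 against 172.2 units, a ratio of 0.856) and in replicate 2 (77.7 against 153.0, a ratio of 0.508), and above it in replicate 3 (239.3 against 207.7, a ratio of 1.15). The groups overlapped. In limma the difference was -0.29 ± 0.26 (log2, SE, n = 3 per group) with a 95% interval from -0.85 to 0.27 (adjusted p = 1.00). An exact two-sided permutation test of the same 3 against 3 values gave p = 0.6, where 0.1 is the smallest this design allows. Without replicate 2 of the GA4 group the difference was 0.09, so its sign rests on that array.

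In etr1-1 the ratio of GA4 to water was 0.827, 1.46 and 1.02 in replicates 1, 2 and 3. The difference was 0.05 ± 0.26 (log2, SE, 95% interval -0.51 to 0.61, limma adjusted p = 1.00), and the exact two-sided permutation p was 0.7. Without replicate 2 of the GA4 group it was -0.02. The fit shares 1 estimate of the spread between the genotypes, so the SE was 0.26 in both. The SD within groups at 1 h was 0.53 in Col-0 and 0.11 in etr1-1 (log2). By their own spread, the interval given for Col-0 is too narrow and that for etr1-1 too wide. Over both genotypes GA4 minus water was -0.12 ± 0.18 (95% interval -0.51 to 0.28, limma adjusted p = 1.00), and 0.07 without the Col-0 GA4 array of replicate 2. The test of a different response in the genotypes gave 0.34 ± 0.37 (95% interval -0.45 to 1.13, limma adjusted p = 1.00), and -0.03 without that array.

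None of these contrasts called AT5G57760. None of the 15922 tested probe sets passed in any of them either (0%). At an unadjusted p under 0.05 there were 96 (0.603%) in Col-0, 288 (1.81%) in etr1-1, 255 (1.6%) over both genotypes and 112 (0.703%) for the difference between them. AT5G57760 had unadjusted p-values of 0.288, 0.843, 0.533 and 0.371 in limma. Its intervals leave room for a change of either sign, and the values within etr1-1 lie where the offset of 16 compresses differences. These fits and the permutation tests did not use the pairing of arrays by replicate number, so shifts shared by a number stay in their spread.

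**Figure D3:**
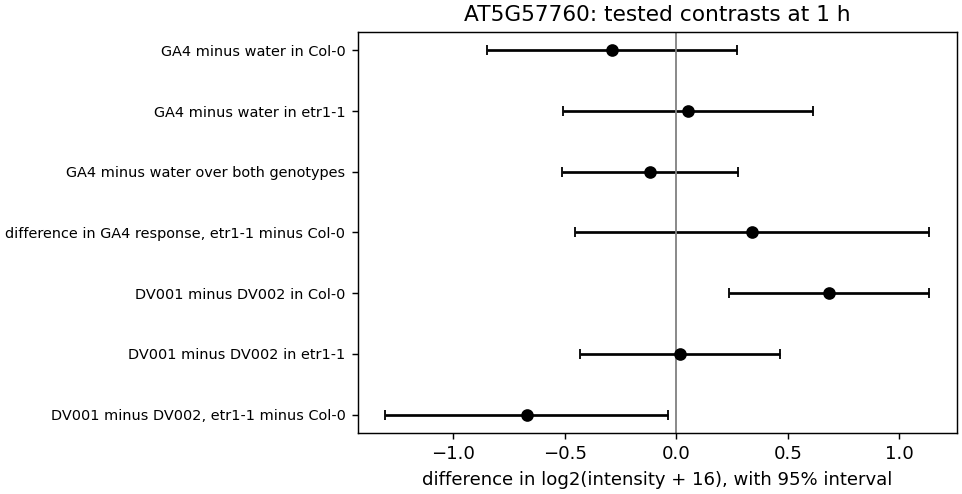
Differences in log2(intensity + 16) for AT5G57760 at 1 h with 95% intervals from limma, for GA4 against water and for arrays titled DV001 against DV002. The GA4 contrasts all span 0, and the DV001 contrast in Col-0 is 0.69 with an interval from 0.24 to 1.13. All intervals rest on a spread shared by both genotypes.

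Time was followed with single arrays, so the steps have no test, and they are taken among the arrays titled DV001. Some of these titles end in a word for a repeat and others do not. In Col-0 the titles at 0 h, 30 min and 1 h have such an ending and the title at 3 h has none. The part of this difference between titles in the steps was not tested. In Col-0 the gene went from 132.2 units at 0 h to 156.0 at 30 min after GA4 and 239.3 at 1 h after GA4, and then to 129.5 at 3 h. After water it went from 132.2 at 0 h to 207.7 at 1 h, so the level at 1 h was above 0 h after both sprays. On the log2 scale the step from 0 h to 1 h after water was 0.59, larger in size than in 94.9% of tested probe sets, and the step from 1 h to 3 h after GA4 was -0.81, larger than in 98.3%. The level at 3 h after GA4 differed from that at 0 h by -0.03. The DV002 arrays at 1 h, at 77.7 to 172.2 units, take in the levels at 0 h and 3 h, and no DV002 array was made at 0 h or 3 h, so the higher level at 1 h has no second set of arrays.

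In etr1-1 the same steps stayed between -0.11 and 0.18 on the log2 scale. From 0 h to 1 h after water the step was 0.06, and from 1 h to 3 h after GA4 it was -0.03. On this scale a step of a dim probe set is compressed, and with an offset of 1 the step from 30 min to 1 h after GA4 was 0.35.

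The 2 Col-0 arrays at 1 h titled DV001 read 207.7 and 239.3 units, above all 4 titled DV002 (77.7, 147.4, 153.0 and 172.2). With a term for each group the difference was 0.69 ± 0.21 (log2, SE, 95% interval 0.24 to 1.13), with an adjusted p of 0.0706 in limma, and it did not pass. In this contrast 855 of 15922 probe sets passed (5.37%), and 24.5% had an unadjusted p under 0.05. Without replicate 1 of the Col-0 GA4 group AT5G57760 passed (0.81, limma adjusted p = 0.0443). In etr1-1 the arrays titled DV001 read 15.8 and 16.1 units, within the range of those titled DV002 (13.4 to 19.7), and the difference was 0.02 ± 0.21 (limma adjusted p = 0.973), where 904 probe sets passed (5.68%) and 24% had an unadjusted p under 0.05. The difference between the genotypes was -0.67 ± 0.29 (limma adjusted p = 0.631), and no probe set passed there (0%), while 1224 (7.69%) were under an unadjusted p of 0.05. Replicate numbers pair the arrays, and DV001 at 1 h is replicate 3 alone, so this contrast sets 1 numbered set against 2. Its p-values take arrays as independent and may be too small. The fit also shares 1 estimate of the spread between the genotypes, with an SE of 0.21 in both. The SD within groups at 1 h, with no term for the prefix, was 0.53 in Col-0 and 0.11 in etr1-1. The interval and p-value in Col-0 may thus understate the Col-0 spread. With the number as a random block in limma AT5G57760 had 0.69 ± 0.22 in Col-0 (adjusted p = 0.0909). In that fit 589 probe sets passed in Col-0 (3.7%) and 650 in etr1-1 (4.08%). It still sets 1 number against 2, with a single correlation of 0.0888 for all probe sets, so it does not lift that limit. Scanner background in the labels was 84.70 to 109.95 on the 4 arrays at 1 h titled DV001 and 79.51 to 93.63 on the 8 titled DV002, in raw units, and its part in the difference was not tested.

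Replicates of AT5G57760 differed more in Col-0 than those of most probe sets of like level. Its SD within groups at 1 h was 0.53 (log2), against a median of 0.17 for 3378 probe sets within 0.5 of its mean, and 97.8% of these had a lower SD. Most of this came from the GA4 group, where the SD was 0.72 and 99.2% of like probe sets had a lower one. In the water group it was 0.20, and 69.1% had a lower one. In etr1-1 the SD was 0.11, below the median of 0.23 for 5556 probe sets of like level, with 7.78% lower.

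The dimmest Col-0 array, replicate 2 at 1 h after GA4, differed from the other Col-0 arrays in more than this gene. Its highest intensity was 3231.2 units, the lowest of the 18 arrays, and its ratio of 3' to 5' signal for ubiquitin was the lowest of the Col-0 arrays (2.29, against a median of 2.83). Its ratio for actin was the second lowest (3.33, against a median of 5.85), and that for GAPDH was at their median. Other genes lower in etr1-1 went both ways on it: AT5G22580 read 245.3 units, its lowest value in Col-0, while the jacalin-related lectin gene JAL22 read 588.5, its highest, and ARL read 317.4 against a Col-0 median of 250.7. The part of these array measures in the level of AT5G57760 was not tested.

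Genes with a like pattern were sought by Pearson correlation of the log2 values over the 9 Col-0 arrays, where the signal is clear, among 8766 named and tested probe sets. The 10 most alike were AT2G40980 (0.951), atpE (0.936), GT-1 (0.925), OSB1 (0.924), CHR24 (0.921), AT5G63930 (0.914), AT4G38700 (0.913), AT2G10940 (0.901), AT1G79720 (0.889) and ATPC1 (0.874). Of these atpE and ATPC1 encode the epsilon and gamma subunits of the chloroplast ATP synthase, GT-1 is a trihelix DNA-binding factor, OSB1 binds single-stranded DNA in organelles and CHR24 belongs to the chromatin remodelling factors. The median correlation over all these probe sets was 0.04 and the 99th percentile 0.760, and arrays share their scaling, so these values only describe the arrays.

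All 10 had their lowest Col-0 value on the same array as AT5G57760, replicate 2 at 1 h after GA4, and 6 had their highest on replicate 3 of that group. Their range was narrower than that of AT5G57760: AT2G40980 ran from 59.5 to 92.0 units in Col-0 and atpE from 2236.1 to 3151.3, against 77.7 to 239.3. Without replicate 2 the correlations of the 10 lay between 0.756 and 0.887, and 7 of them were among the 100 most alike. Over the 5 Col-0 arrays titled DV001, 1 of them was.

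Between the genotypes, 0 of the 10 had every Col-0 array above every etr1-1 array, where 0.343% of all probe sets had, and 3 had a mean difference below 0, where 45.3% of tested probe sets had. Both counts are near those of all probe sets. AT2G40980 was at 60.6 to 114.9 units in etr1-1, and atpE at 2529.6 to 3182.4. The 5 most opposite in Col-0 were AT4G31875 (-0.918), the sugar transporter gene SFP1 (-0.915), AT5G38830 (-0.904), AT2G44230 (-0.893) and AT5G36160 (-0.887), and their highest Col-0 value lay on the array where AT5G57760 was lowest.

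**Figure D4:**
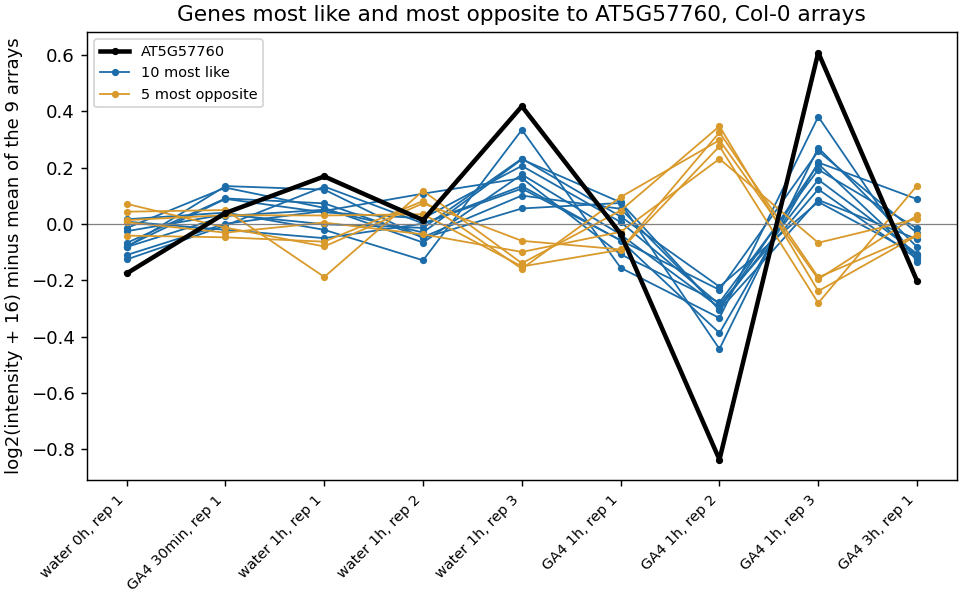
log2(intensity + 16) minus its mean over the 9 Col-0 arrays, for AT5G57760 (black), the 10 genes most like it and the 5 most opposite to it. The genes were chosen for this pattern, and the widest excursions lie on GA4 at 1 h replicates 2 and 3.

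Over all 18 arrays the most alike were AT5G44580 (0.946), JAL22 (0.939), ARL (0.934), AT5G01210 (0.927), which encodes a BAHD-type acyltransferase, and AT5G22580 (0.923). This likeness is set by the genotypes, which the choice of AT5G57760 used. Of all probe sets 0.343% had every Col-0 array above every etr1-1 array, as had all 5 of these genes. Within the 9 Col-0 arrays their correlations with AT5G57760 were 0.633, -0.299, -0.112, 0.0534 and 0.598, in the same order. None of the 5 was among the 10 most alike in Col-0. AT5G44580 ran from 505.3 to 707.4 units in Col-0 and from 203.7 to 356.0 in etr1-1, and JAL22 from 383.8 to 588.5 and from 125.8 to 196.8.

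On the chromosome, AT5G57760 overlaps the next protein-coding gene, AT5G57770, along 73.1% of its length in TAIR10.1, and the table gives no strand. AT5G57770 has its own probe set, which read 8.1 to 26.9 units in Col-0 and 8.8 to 21.1 in etr1-1, with medians of 17.7 and 16.3. It stayed under the filter, and etr1-1 minus Col-0 was 0.03 on the log2 scale, with no test. Its genotypes thus overlapped, unlike those of AT5G57760, and the levels of different probe sets cannot be set against each other.

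Of the 10 nearest protein-coding genes, 5 on each side, 5 had a named probe set and 3 of these passed the filter. AT5G57700 had a difference of 0.10 between etr1-1 and Col-0, AT5G57720 of 0.13 and P1R1 of -0.36, with no test. P1R1 ran from 50.7 to 93.2 units in Col-0 and from 38.3 to 80.9 in etr1-1, so its genotypes overlapped. AT5G57790 was at 4.6 units or less on all arrays. None of the measured neighbours was lower in etr1-1 by more than 1 on the log2 scale.

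**Figure D5:**
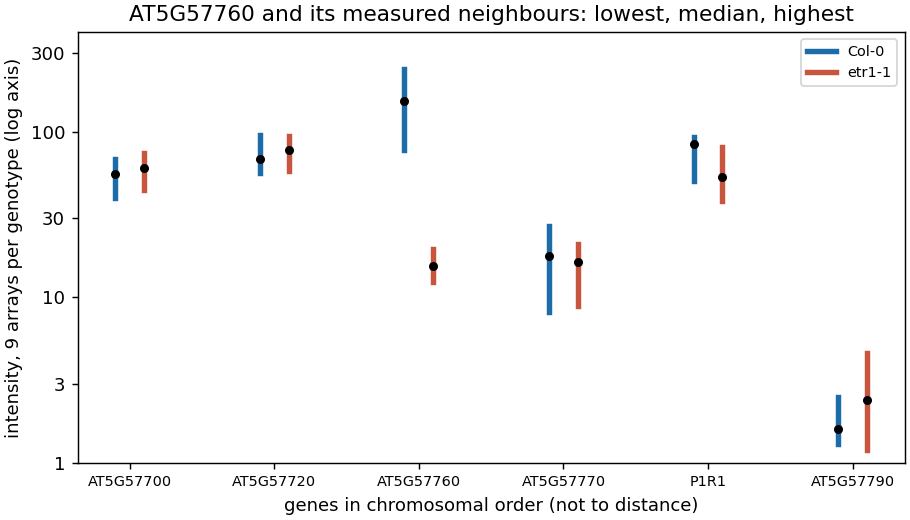
Lowest, median and highest intensity (log axis) over the 9 arrays of each genotype for AT5G57760 and its 5 neighbours with a named probe set, in chromosomal order. The genotypes are apart for AT5G57760 and overlap for the other genes.

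Genes of the 2 hormone pathways were read from lists of which few members had a named probe set. Of 29 ethylene genes 4 were tested. None passed in the GA4 contrasts (0% of all tested probe sets did), and none passed between DV001 and DV002, where 5.37% of all did in Col-0 and 5.68% in etr1-1. Their differences between etr1-1 and Col-0, given with no test, were -1.85 for ARL, -0.50 for the defensin gene PDF1.2b, -0.13 for RTE1, which acts with the receptor ETR1, and -0.01 for EIN3, a transcription factor of the ethylene response. Their median was -0.32, against 0.02 for all tested probe sets. It rests on 4 genes and was not tested, and ARL, 1 of the 4, was named above for the size of its fall. RTE1 (38.0 to 78.3 units) and EIN3 (255.2 to 424.3 units) overlapped between the genotypes.

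Of 27 gibberellin genes 7 were tested, and none passed for GA4 against water in either genotype, over both or for the difference between them, as in 0% of all tested probe sets. Their median response to GA4 was -0.08 in Col-0 and -0.03 in etr1-1, against 0.01 and -0.000474 for all tested probe sets. The GASA family gene GASA9, the brightest of the 7, was higher with DV001 than DV002 in Col-0 (0.82 ± 0.16, log2, SE, limma adjusted p = 0.0195), the contrast in which AT5G57760 had 0.69. The expansin gene EXPA8 was higher with DV001 in etr1-1 (0.95 ± 0.23, limma adjusted p = 0.0370). These are 1 of 7 in each genotype, against 5.37% and 5.68% of all tested probe sets. GASA9 was also higher with DV001 in etr1-1 (0.53 ± 0.16, limma adjusted p = 0.0781), and EXPA8 in Col-0 (0.60 ± 0.23, limma adjusted p = 0.139). Neither passed for the difference between the genotypes (limma adjusted p = 0.813 and 0.855). XERICO, raised by DELLA proteins, and the receptor gene GID1A differed by 0.20 and 0.09 between etr1-1 and Col-0, with no test. Of 20 auxin and shade genes 4 were tested, and none passed for GA4 (0% of all) or between DV001 and DV002 (5.37% and 5.68% of all). The auxin-conjugating enzyme genes GH3.5 and GH3.17 had differences of -0.08 and 0.57 between etr1-1 and Col-0, with no test. The root marker and both shoot markers passed in none of these contrasts either. Between DV001 and DV002 in Col-0 the shoot markers LHCB4.1 and RCA had differences of 0.27 ± 0.08 and 0.34 ± 0.10 (log2, SE), with limma adjusted p-values of 0.0619 and 0.0706, beside the 0.69 and 0.0706 of AT5G57760, and their part in that difference was not tested.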

How the data were processed

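Biotin-labelled cRNA, from a protocol that used an oligo(dT) primer, was hybridised to ATH1 arrays, per the labels. The deposited values are linear intensities, 1 per probe set, already scaled between arrays. Their summary method: not given in the sources used here. They were used as log2(intensity + 16) with no further scaling, so folds on that scale understate changes of dim probe sets. Of 22810 probe sets, 64 controls and those with a mean under the 30th percentile were left out, which left 15922 for tests. The platform table pairs 13513 non-control probe sets with a single gene and 503 with more, and does not list 8730. Of the 13513, 13436 were matched to RefSeq by Entrez identifier. A list gene with several probe sets was read by the brightest.

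Limma 3.58.1 (R 4.3.3) fitted the 12 arrays at 1 h with 1 term per group and an intensity trend, or with added terms for the title prefix in each genotype, and p-values were adjusted by Benjamini-Hochberg over all tested probe sets with a threshold of 0.05. The comparison of the prefix difference between genotypes was added after the data were seen. The code was tested on simulated data. Genes named are AT5G57760, the 10 most alike and 5 most opposite over the Col-0 arrays, the 5 most alike over the 18 arrays, the 3 next to it by size of the genotype difference, the measured neighbours among 5 on each side, list members that passed and up to 2 others per list by mean intensity. RTE1 and PDF1.2b were named after values were seen. The gene and the lists were chosen with earlier results of these data known.

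Replicate numbers from the labels pair the arrays: deviations from group means correlated at 0.126 to 0.700 for the 18 same-numbered pairs at 1 h, and all 12 arrays had their highest correlation with an array of the same number. No sequence of the gene is used here, and coordinates are used only for gene order and overlap.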

Additional observations from a re-analysis of the deposited data

How the results depend on the processing

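AT5G57760 passed in none of the 4 GA4 contrasts under any alternative run (offsets of 1 and 64, quantile normalization, no filter, no variance trend, the title prefix as a term, DV002 alone and each array left out). With the replicate block of paired numbers the differences were unchanged, at -0.29 in Col-0, 0.05 in etr1-1, -0.12 over both and 0.34 between them, with limma adjusted p-values of 0.999, 0.992, 0.970 and 1.00. Leaving out 1 array at a time, they ran from -0.64 to 0.0867, -0.0197 to 0.12, -0.29 to 0.0696 and -0.0342 to 0.69, with each change of sign on leaving out replicate 2 of a GA4 group, and called between 0 and 1 probe sets in etr1-1 and over both. The difference between DV001 and DV002 ran from 0.33 to 1.04 in Col-0, with limma adjusted p-values over all alternatives from 0.0443 to 0.674, and from -0.0399 to 0.0801 in etr1-1, where quantile normalization gave -0.0292. Its calls fell to 510 and 571 with no filter, where more probe sets were tested. With 1 array left out they reached at most 1026 in Col-0 and 1068 in etr1-1. They were fewest where 1 of the 2 DV001 arrays of that genotype was missing, a fit with 1 such array left. The genotype difference was -3.23 with an offset of 1, -1.42 with an offset of 64 and between -2.47 and -2.33 with 1 array left out. Of the 10 genes most alike in Col-0, 1 was among the 100 most alike over the 5 DV001 arrays, and 7 to 10 under the other alternatives, 7 of them without the dimmest array (an alternative chosen after seeing the data, as were those for time steps and the random replicate block for the prefixes, which covers 3 numbers and changed no call of AT5G57760, GASA9 or EXPA8). Dim signal limits all values within etr1-1, and single arrays limit all values outside 1 h.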

Other observations

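In Col-0 the 2 shoot markers with a named probe set, of 10 listed, correlated with AT5G57760 over the arrays. The correlation of log2 values over the 9 Col-0 arrays was 0.819 for RCA, which encodes the activase of the carbon-fixing enzyme Rubisco, and 0.791 for LHCB4.1, an antenna protein of photosystem II. Both had their lowest value of all 18 arrays on replicate 2 at 1 h after GA4 (2147.7 and 2603.3 units), where AT5G57760 read 77.7. Without that array the correlations over 8 arrays were 0.654 and 0.700. Over 9 arrays the 99th percentile of named and tested probe sets was 0.760, and none is given over 8. The single root marker, EXPA7, had 0.0630 over 9 arrays and 0.356 over 8. The summed level of the 2 shoot markers was 4751.0 to 7001.6 units in Col-0 and 5500.1 to 6185.3 in etr1-1, so it overlapped between genotypes that AT5G57760 kept apart. The arrays share scaling and hybridisation, and these markers were looked at in this way after the data were seen.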
